A study of Homo sapiens with 6 samples.

Results

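The genes described here code for subunits of the respiratory chain and of ATP synthase, and they were chosen by name from a table of read counts of F36P cells. Names starting with NDUFA, NDUFB, NDUFC, NDUFS or NDUFV and a digit, with UQCR, with COX4, COX5, COX6, COX7 or COX8, or with ATP5 were taken, together with the mitochondrially encoded protein genes, and pseudogenes were left out. This gave 93 of the 14821 genes in the table. Of these, 77 were nuclear genes coding for proteins, 13 were mitochondrially encoded, and 3 were antisense or divergent transcripts that share a name with a subunit. Of the nuclear genes, 36 belonged to complex I, 9 to complex III, 13 to complex IV and 17 to complex V, and the last 2 were ATP5IF1, an inhibitor of ATP synthase, and COX7A2L, an assembly factor of supercomplexes. The mitochondrial genes gave 7 subunits of complex I, 1 of complex III, 3 of complex IV and 2 of complex V.

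F36P is a human cell line established from an acute erythroid leukaemia. In 3 libraries the cells carried the MSCV-PIG-AM-ERG retroviral plasmid, from which the ETS-family transcription factor ERG is overexpressed, and in 3 libraries they carried MSCV-PIG without ERG (vector). All cells had been kept in 1 µg/ml puromycin for 4 days, and the submitters' stated question was how ERG inhibits erythroid differentiation. A single line was used, and its replicates, biological per the labels, are not tied to separate cultures or transductions. The p-values therefore measure how these samples differed among themselves, which may be technical. Levels are in CPM (counts scaled to the library's total after TMM normalisation). ERG itself stood at 97.4, 103 and 104 CPM in ERG libraries against 28.1, 14.6 and 22.4 CPM in vector libraries (edgeR log2 difference 2.23 ± 0.23 SE, adjusted p = 0.0110). Totals were 12421407 to 14803031 counts with ERG and 10257141 to 13615797 counts with vector. The libraries did not scatter evenly within the groups. ERG replicates 1 and 2 differed by a chi-square of 2.2 per degree of freedom, while all other pairs differed by 21.6 to 86.9, and ERG 1, ERG 2 and vector 1 lay apart from ERG 3, vector 2 and vector 3. These library sets were described from correlations of the data and are not groups of the study.

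Electrons enter the chain mainly at complex I, pass through ubiquinone, complex III and cytochrome c to complex IV, and the proton gradient so built drives ATP synthase, complex V. The core of these complexes is assembled from proteins of both genomes: the mitochondrial DNA codes for a few hydrophobic subunits, which are transcribed as long polycistronic RNAs inside the organelle, and nuclear genes code for all others, which are imported. Red cell precursors respire and also make haem in their mitochondria, and they clear these organelles only at the end of maturation.

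Taken as a list, the nuclear genes had slightly lower levels with ERG, while the mitochondrially encoded genes had values on both sides of 0. In the ERG to vector comparison, 74 of 76 tested nuclear genes had a negative log2 difference, against 51.1% of all 14203 tested genes. The median over the nuclear genes was -0.32, a level 19.8% lower with ERG, and the interquartile range was -0.40 to -0.24. Over all tested genes the median was -0.01. Over the 13 mitochondrial genes the median was 0.03, with 10 positive and 3 negative values. No single gene passed the test: edgeR's quasi-likelihood test with Benjamini-Hochberg adjustment called 0 of 76 nuclear and 0 of 13 mitochondrial genes at an adjusted p under 0.05, against 2.2% of all tested genes in either direction and 0.732% called lower. At an unadjusted p under 0.05 there were 14 nuclear genes, all lower with ERG (against 6.66% of all tested genes), and 0 mitochondrial genes. DESeq2 called 1 nuclear gene, ATP5F1E (against 2.89% of all tested genes called lower), and 0 mitochondrial genes, and limma-voom called 0 of either kind. All 3 ERG libraries lay below all 3 vector libraries in 19 nuclear genes (25.0%, against 9.54% of all tested genes) and above them in 0 (against 12.3%). In bulk RNA, fewer cells of a type and less RNA per cell cannot be told apart.

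**Figure D1:**
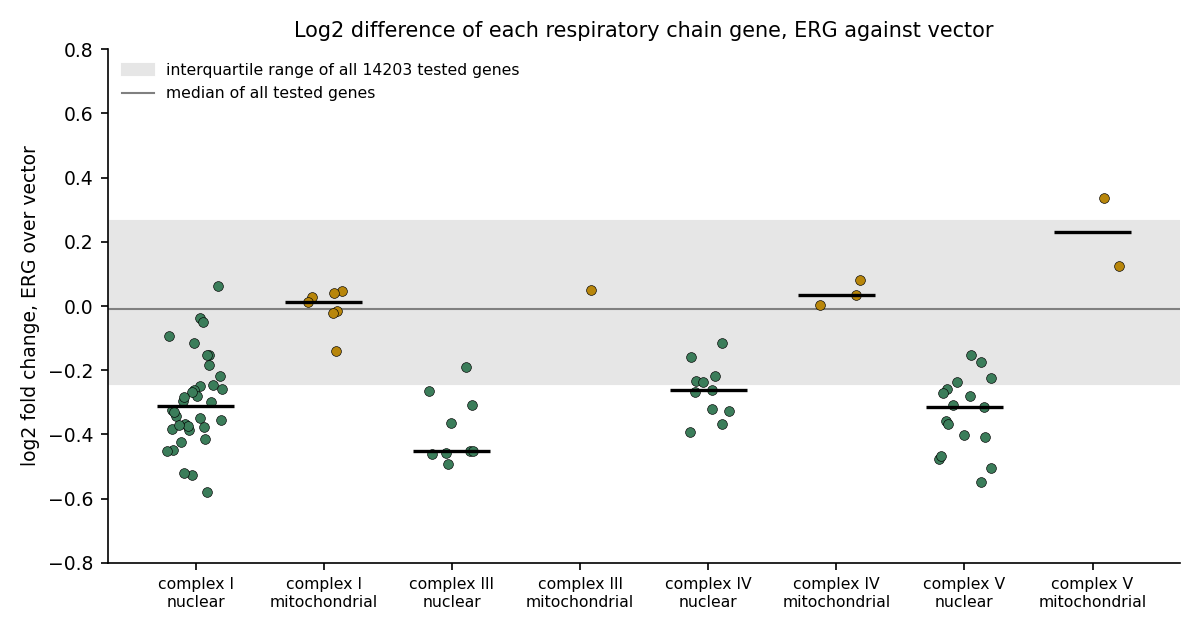
Log2 fold change of ERG over vector (vertical axis) of each tested gene (points), by complex and genome of origin (horizontal axis), with black lines at the medians and a grey band for the interquartile range of all tested genes; ATP5IF1, COX7A2L and NDUFA4L2 are not drawn. The nuclear genes lie below 0 except NDUFC2 at 0.06, while the 13 mitochondrial genes lie between -0.14 and 0.34.

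Complex I, the NADH dehydrogenase, had the most genes. Its 36 nuclear subunits had a median log2 difference of -0.31, 35 were negative, 9 had an unadjusted p under 0.05 and lay lower (against 6.66% of all tested genes) and 11 did not overlap between groups (against 9.54%). Summed over these subunits the level was 2171, 2111 and 2745 CPM in ERG libraries and 2877, 2885 and 2887 CPM in vector libraries (2342 ± 350 with ERG and 2883 ± 5.14 with vector, SD, n = 3 each). Every ERG library lay below every vector library, and the vector sums lay close together. The SD of these sums is no measure of the spread of single subunits. NDUFA13, for example, had 176, 150 and 141 CPM in vector libraries. NDUFB6 (chr9:32553001-32573159), an accessory subunit of the membrane arm, stood at 40.5, 41.1 and 55.1 CPM in ERG libraries against 61.5, 71.6 and 62.8 CPM in vector libraries. The groups did not overlap, and the log2 difference of -0.52 ± 0.16 (SE) had an edgeR adjusted p of 0.173. NDUFS8 (chr11:68030681-68036644), a core subunit that carries iron-sulphur clusters, had 60.4, 63.8 and 76.3 CPM in ERG libraries and 95.9, 88.0 and 83.2 CPM in vector libraries. This log2 difference, -0.41 ± 0.14 (SE), had an edgeR adjusted p of 0.205, and here too the groups did not overlap.

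NDUFA10 and NDUFA13, accessory subunits, followed the same order of groups. NDUFA10 had 93.5, 91.5 and 110 CPM in ERG libraries and 115, 135 and 146 CPM in vector libraries. NDUFA13, also known as GRIM-19, had 106, 103 and 132 CPM in ERG libraries and 176, 150 and 141 CPM in vector libraries. Neither overlapped between groups, with log2 differences of -0.42 and -0.45 and an edgeR adjusted p of 0.214 for each. The other 5 complex I genes with an unadjusted p under 0.05 were NDUFA5, NDUFA8, NDUFB7, NDUFC1 and NDUFV2, with log2 differences of -0.34 to -0.45. NDUFS5 had the most negative value of all 76 nuclear genes, -0.58 ± 0.29 (SE), but its libraries were spread: 116, 96.1 and 192 CPM with ERG and 148, 239 and 216 CPM with vector, so the groups overlapped (edgeR adjusted p = 0.386). NDUFA2 was similar, with 15.4, 16.2 and 33.3 CPM in ERG libraries and 31.1, 28.3 and 34.1 CPM in vector libraries. ERG 1 and ERG 2 were low in both genes, and ERG 3 was near or inside the range of the vector libraries.

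Some complex I subunits had values close to 0. NDUFS1, the largest core subunit, had 124, 125 and 135 CPM in ERG libraries and 111, 145 and 138 CPM in vector libraries (log2 difference -0.04 ± 0.14 SE, 95% interval -0.37 to 0.29). NDUFV3, an accessory subunit next to the NADH binding site, had 42.1, 43.0 and 46.6 CPM in ERG libraries and 45.2, 45.6 and 45.5 CPM in vector libraries. It varied least of the nuclear genes, with the highest library 1.11 times the lowest. NDUFC2 was the only nuclear complex I gene with a positive value, 0.06 ± 0.24 (SE). The most abundant nuclear genes of the complex, beside NDUFS5, were NDUFB9, an accessory subunit, and NDUFV1, the flavin-carrying subunit where NADH is oxidised (log2 differences of -0.28 and -0.22). NDUFB9 had 181, 176 and 203 CPM in ERG libraries and 255, 222 and 205 CPM in vector libraries, and the groups did not overlap.

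Complex III, which passes electrons from ubiquinol to cytochrome c, had the lowest median of the complexes, -0.45 over 9 genes, all negative. Summed, they gave 830, 793 and 1098 CPM in ERG libraries and 1120, 1199 and 1164 CPM in vector libraries, with no overlap of the groups. UQCRH, the hinge protein at the cytochrome c docking site, stood at 140, 140 and 203 CPM with ERG and 217, 241 and 205 CPM with vector (log2 difference -0.46 ± 0.18 SE, edgeR adjusted p = 0.281). ERG 3 lay just below the lowest vector library. UQCRHL, a copy of UQCRH without introns that is 97.87% identical to it over 516 aligned bases, had 33.1, 31.8 and 43.9 CPM in ERG libraries and 43.4, 56.2 and 40.4 CPM in vector libraries. Reads may have been split between these copies, so each value alone is uncertain. The core protein UQCRC1 had 128, 124 and 181 CPM in ERG libraries and 175, 206 and 211 CPM in vector libraries, with ERG 3 inside the vector range (log2 difference -0.45 ± 0.18 SE). Its partner UQCRC2 had 112, 107 and 111 CPM in ERG libraries and 137, 127 and 132 CPM in vector libraries, which did not overlap. UQCRC1, UQCRC2 and UQCRH were the 3 genes of the complex with an unadjusted p under 0.05. Of the small subunits, UQCR11 had a log2 difference of -0.49, UQCRQ of -0.46 and UQCRB of -0.19.

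Complex IV, cytochrome c oxidase, had the median closest to 0, -0.25 over 12 tested nuclear genes, of which 11 were negative and 0 had an unadjusted p under 0.05. Its summed level was 1120, 1065 and 1392 CPM in ERG libraries and 1436, 1430 and 1376 CPM in vector libraries, and ERG 3 lay within the vector range. COX4I1, the largest nuclear subunit, stood at 234, 236 and 282 CPM with ERG and 300, 295 and 290 CPM with vector. The groups did not overlap, with a log2 difference of -0.23 ± 0.14 (SE) and an edgeR adjusted p of 0.451. COX8A, a small membrane subunit, had the smallest size of difference among the nuclear subunits at -0.12 ± 0.13 (SE). COX7C, a small subunit too, had 86.4, 77.9 and 120 CPM in ERG libraries and 135, 103 and 129 CPM in vector libraries, with ERG 3 inside the vector range (log2 difference -0.37 ± 0.20 SE). NDUFA4, first described with complex I and now known as a complex IV subunit, had 27.1, 24.3 and 29.0 CPM in ERG libraries and 29.7, 38.1 and 32.6 CPM in vector libraries, without overlap.

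Where COX subunits have tissue isoforms, the forms above the filter on low counts were the widely expressed ones. COX6A1 had a mean of 37.7 ± 8.36 CPM with ERG and 45.2 ± 4.21 CPM with vector, COX7A2 of 98.0 ± 13.7 CPM with ERG and 110 ± 7.31 CPM with vector, and COX7B of 71.9 ± 17.7 CPM with ERG and 94.5 ± 18.1 CPM with vector (SD, n = 3 each). COX6B1 had 135 ± 29.9 CPM with ERG and 159 ± 12.2 CPM with vector. Its testis form COX6B2 was too low to be tested, at 0.156, 0.686 and 0.272 CPM in ERG libraries and 0.616, 2.97 and 1.08 CPM in vector libraries. NDUFA4L2, the hypoxia-inducible relative of NDUFA4, had 49, 42 and 4 counts in ERG libraries and 35, 1 and 0 counts in vector libraries. ERG 1, ERG 2 and vector 1 held nearly all of its counts, and its log2 difference of 1.13 ± 1.33 (SE), the highest of the nuclear genes, was smaller than its error. COX7A2L was highest in vector 1, with 91.0, 84.4 and 59.7 CPM in ERG libraries and 145, 81.3 and 69.9 CPM in vector libraries.

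In complex V, ATP synthase, all 17 nuclear genes had negative values, with a median of -0.32. The summed level was 2734, 2621 and 3697 CPM in ERG libraries and 3349, 3913 and 3880 CPM in vector libraries. ERG 1 and ERG 2 lay below every vector library, and ERG 3 lay between vector 1 and vector 3. ATP5F1E (chr20:59025475-59032335), the epsilon subunit of the central stalk, had the lowest unadjusted p of the nuclear genes. It stood at 35.3, 30.3 and 35.2 CPM with ERG and 54.0, 45.5 and 43.4 CPM with vector. The groups did not overlap, and the log2 difference of -0.50 ± 0.15 (SE, 95% interval -0.84 to -0.16) had an adjusted p of 0.141 in edgeR and 0.0441 in DESeq2.

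The genes of the beta and alpha subunits were the most abundant nuclear genes of the set. ATP5F1B, the beta subunit, had 791, 775 and 1084 CPM in ERG libraries and 888, 1085 and 1123 CPM in vector libraries. ATP5F1A, the alpha subunit, had 578, 549 and 764 CPM in ERG libraries and 698, 870 and 857 CPM in vector libraries. In both, ERG 1 and ERG 2 were the lowest libraries and ERG 3 lay inside the vector range, with log2 differences of -0.22 ± 0.20 and -0.36 ± 0.19 (SE). The 3 genes for the identical mature c subunit of the rotor ring did not have equal values. ATP5MC1 had a log2 difference of -0.55 ± 0.27, ATP5MC2 of -0.18 ± 0.15 and ATP5MC3 of -0.48 ± 0.30 (SE). ATP5MC2 also had the highest level of them, with 229, 222 and 276 CPM in ERG libraries and 302, 254 and 264 CPM in vector libraries, and ERG 3 lay above vector 2 and vector 3. ATP5IF1, which blocks the enzyme from running backwards, had 75.4, 73.3 and 78.8 CPM in ERG libraries and 118, 112 and 74.6 CPM in vector libraries. Vector 3 lay among the ERG libraries, and the adjusted p was 0.327 (edgeR).

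**Figure D2:**
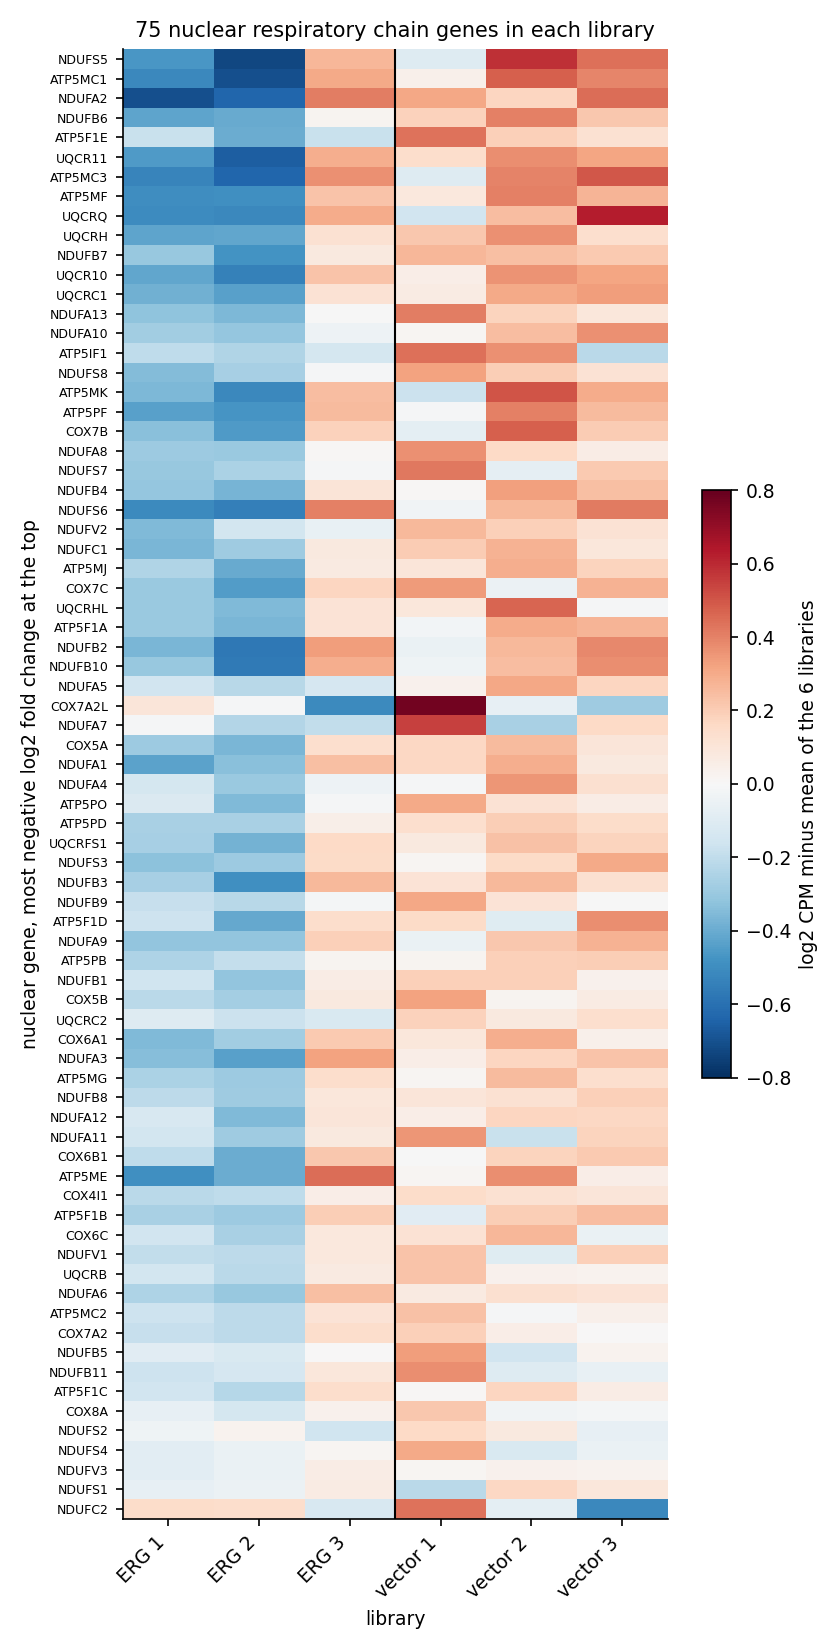
Level of each of 75 tested nuclear genes (rows, the most negative log2 fold change at the top) in each library (columns, ERG left and vector right), coloured by log2 CPM minus the gene's mean over the 6 libraries; NDUFA4L2 is not drawn. ERG 1 and ERG 2 are the lowest columns for most genes, while ERG 3 is closer to the vector columns.

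The libraries labelled ERG did not carry the difference equally. ERG 1 and ERG 2 were the 2 lowest libraries in 64 of 76 nuclear genes and lay below all vector libraries in 66. ERG 3 lay below all vector libraries in 21 genes, between them in 50 and above them in 5. These positions were not counted over all tested genes, so no background share can be set beside them. ERG 1 and ERG 2 were also very alike over the whole table (chi-square of 2.2 per degree of freedom), so their ranks are not separate observations. Summed over the nuclear genes, the level was 7022, 6748 and 9070 CPM in ERG libraries and 9045, 9620 and 9450 CPM in vector libraries (7613 ± 1269 with ERG and 9372 ± 296 with vector, SD, n = 3 each). ERG 3 lay just above vector 1, so the groups overlapped. Within the library sets, ERG 1 and ERG 2 minus vector 1 gave a median log2 difference of -0.42, with 74 of 76 genes negative, and ERG 3 minus vector 2 and vector 3 gave -0.07, with 50 of 76 negative. The same medians over all tested genes were 0.00 and 0.02, with 49.8% and 47.3% of the genes negative. A model with a term for the library sets called 7 nuclear genes lower (against 5.96% of all tested genes): NDUFA10, NDUFA13, NDUFB6, NDUFS8, UQCRC1, ATP5F1E and COX7A2L, with edgeR adjusted p of 0.0132 to 0.0483. The sets were drawn from these same data, so these p-values can be too small and add no separate support. Without ERG 3, edgeR called ATP5MF, NDUFA2 and UQCR11 lower (against 0.979% of all tested genes).

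The promoters of a few members are shown because ERG is an ETS factor, as is GABP, a known activator of respiratory chain genes. NRF1 and YY1 are other known regulators of these genes. Each line gives the 250 bases before the transcription start, read on the gene's strand from 5′ to 3′ (RefSeq, GRCh38.p14), and the capitals mark exact matches of the searched letters on either strand. UQCRH (chr1:46303448-46303697, plus strand) and NDUFA13 (chr19:19515975-19516224, plus strand) hold the ETS letters CCGGAAGT. In ATP5PF (chr21:25735055-25735304, minus strand), a subunit of the ATP synthase stalk, the capitals are the NRF1 letters GCGCATGCG and the YY1 letters AAGATGGCG. The start used for ATP5PF lies inside the annotated span of the gene (chr21:25724500-25735653), so its line is not upstream of the whole gene. NDUFS1 (chr2:206159445-206159694, minus strand) holds the ETS letters too and is shown for its small difference.
UQCRH: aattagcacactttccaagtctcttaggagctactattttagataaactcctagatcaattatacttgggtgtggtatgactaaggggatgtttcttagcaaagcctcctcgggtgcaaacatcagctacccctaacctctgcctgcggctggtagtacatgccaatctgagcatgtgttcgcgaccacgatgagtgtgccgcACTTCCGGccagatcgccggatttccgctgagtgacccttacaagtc
NDUFA13: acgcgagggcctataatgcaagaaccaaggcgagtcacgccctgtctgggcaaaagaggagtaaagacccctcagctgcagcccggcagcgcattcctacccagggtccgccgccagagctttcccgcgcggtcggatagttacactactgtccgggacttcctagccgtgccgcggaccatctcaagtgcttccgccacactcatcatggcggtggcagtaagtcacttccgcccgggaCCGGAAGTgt
ATP5PF: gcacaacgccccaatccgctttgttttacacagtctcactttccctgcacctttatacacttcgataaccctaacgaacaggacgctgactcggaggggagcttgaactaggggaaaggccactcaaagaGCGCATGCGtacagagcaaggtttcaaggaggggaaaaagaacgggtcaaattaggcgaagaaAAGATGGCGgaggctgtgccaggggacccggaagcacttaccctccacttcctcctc
NDUFS1: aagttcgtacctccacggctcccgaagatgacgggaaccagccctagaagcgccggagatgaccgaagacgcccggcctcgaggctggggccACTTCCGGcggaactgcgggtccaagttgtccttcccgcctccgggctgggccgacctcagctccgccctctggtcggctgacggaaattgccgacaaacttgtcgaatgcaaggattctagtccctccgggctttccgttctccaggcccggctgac

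Promoters were found for 63 of the 77 nuclear genes, and the window searched was 300 bases, 250 before and 50 after the start. In some genes, among them ATP5PF, ATP5MC2, COX7A2L and NDUFB11, the start used lies inside the annotated span of the gene. The ETS letters were in 9 of them (14.3%), against 9.0% of the promoters of 10465 genes of the count table and 4.1% of all 35116 promoters. The NRF1 letters, which overlap their own reverse complement, were also in 9 (14.3%, against 3.8% and 1.9%). The YY1 letters were in 7 (11.1%, against 4.0% and 1.7%). The 9 genes with the ETS letters were ATP5MK, ATP5PD, COX5B, COX8A, NDUFA13, NDUFS1, UQCR11, UQCRH and UQCRQ. Their log2 differences ran from -0.49 in UQCR11 to -0.04 in NDUFS1, with a median of -0.41, and the 53 tested genes without these letters had a median of -0.33. Genes with the NRF1 letters had a median of -0.37 and those with the YY1 letters of -0.33. These are descriptions of letters in a window, and no binding was measured here.

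The mitochondrially encoded genes were far more abundant. Per kilobase of transcript their median level was 3360 CPM with ERG and 3400 CPM with vector, and that of the nuclear genes was 64.0 CPM with ERG and 79.0 CPM with vector. The mitochondrial genes ran from ATP8, at 824 CPM per kilobase with ERG and 653 with vector, to COX1, at 7690 with ERG and 7270 with vector. Summed, the 13 genes gave 55525, 57077 and 36703 CPM in ERG libraries and 47445, 64951 and 33023 CPM in vector libraries (49768 ± 11341 with ERG and 48473 ± 15988 with vector, SD, n = 3 each). The vector libraries spanned the ERG libraries, and the ratio of the group means was 1.03. These sums were 3.65% to 5.88% of all counts with ERG and 3.29% to 6.26% with vector.

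**Figure D3:**
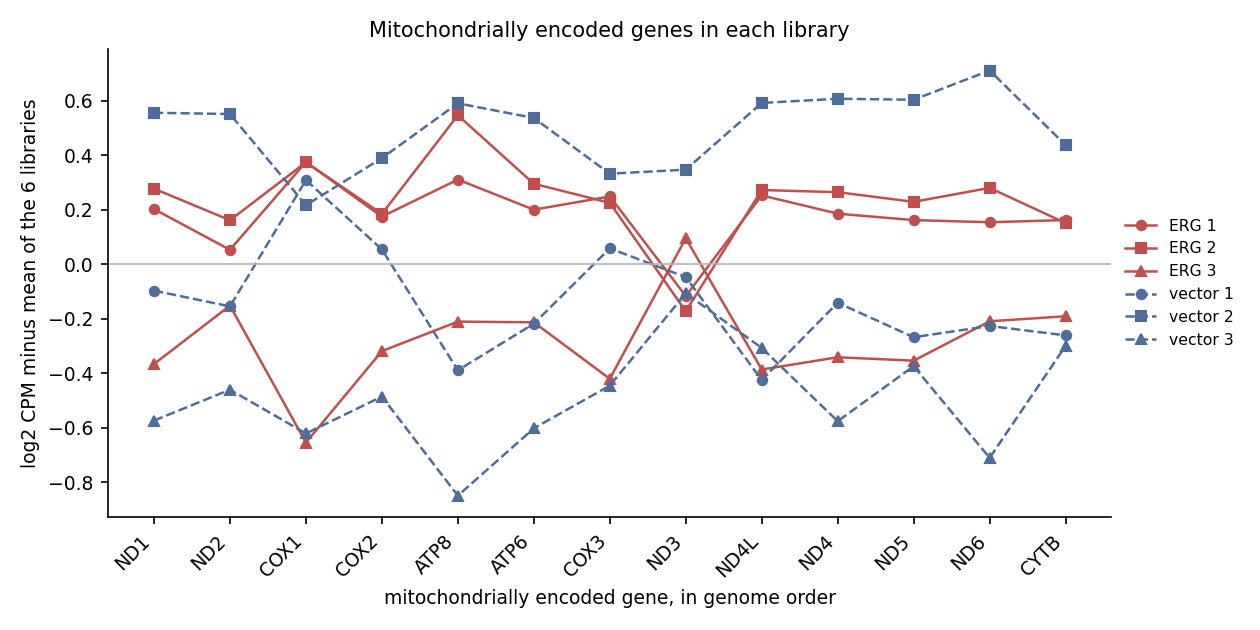
Level of the 13 mitochondrially encoded genes in genome order (horizontal axis) as log2 CPM minus the gene's mean over the 6 libraries (vertical axis), with solid red lines for ERG and dashed blue lines for vector. In 11 of 13 genes, all but COX1 and ND3, the ERG libraries lie inside the range of the vector libraries.

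COX1, the catalytic subunit of complex IV, was the highest of them, with 14293, 14283 and 6998 CPM in ERG libraries and 13650, 12806 and 7163 CPM in vector libraries. ERG 3 and vector 3 were the low libraries, and the groups overlapped (log2 difference 0.08 ± 0.38 SE, 95% interval -0.81 to 0.98). COX2, which takes up electrons from cytochrome c, and COX3 had log2 differences of 0.00 ± 0.28 and 0.03 ± 0.29 (SE). ND4, a proton-pumping subunit of complex I, had 8736, 9227 and 6062 CPM in ERG libraries and 6964, 11704 and 5151 CPM in vector libraries (log2 difference 0.01 ± 0.35 SE). Vector 2 was the highest library and vector 3 the lowest, as in most of these genes. Vector 2 was highest in 12 of 13 genes, all but COX1, and vector 3 was lowest in 10. These positions were not counted over all tested genes, and genes read from polycistronic RNAs are not separate observations. The other complex I genes had log2 differences of 0.03 for ND1, -0.02 for ND2, -0.14 for ND3, 0.05 for ND4L, -0.02 for ND5 and 0.04 for ND6. ND3 varied least, with 863, 830 and 1000 CPM in ERG libraries and 906, 1191 and 869 CPM in vector libraries. ND6, the only one of the 13 genes encoded on the light strand, had 1252, 1367 and 973 CPM in ERG libraries and 962, 1843 and 688 CPM in vector libraries. CYTB, the complex III subunit that holds the haems of cytochrome b, had 1813, 1799 and 1419 CPM in ERG libraries and 1352, 2194 and 1316 CPM in vector libraries.

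ATP8 and ATP6, the membrane subunits of ATP synthase, are read from a shared transcript and overlap by 46 bases on the mitochondrial genome (chrMT:8527-8572 by RefSeq, sequence from GENCODE release 29, hg38). The overlap is shown because reads within it match both genes, and it takes up 46 of the 207 bases of ATP8. The sources used here do not say how such reads were counted.
ATP8 and ATP6: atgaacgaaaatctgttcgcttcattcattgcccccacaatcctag
ATP8 had the most positive value of the 13 genes, 0.34 ± 0.37 (SE), with 178, 210 and 124 CPM in ERG libraries and 110, 216 and 79.6 CPM in vector libraries (edgeR adjusted p = 0.696). ATP6, which is 681 bases long, had 4696, 5016 and 3526 CPM in ERG libraries and 3513, 5930 and 2692 CPM in vector libraries (log2 difference 0.13 ± 0.33 SE). In both, vector 2 was the highest library and the groups overlapped.

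The share of single genes within the mitochondrial messages also differed between libraries. COX1 made up 25.7%, 25.0% and 19.1% of the counts of the 13 genes in ERG libraries and 28.8%, 19.7% and 21.7% in vector libraries. It was highest in ERG 1, ERG 2 and vector 1. The large mitochondrial ribosomal RNA, RNR2, followed the same libraries, with 12573, 13122 and 3888 CPM in ERG libraries and 14612, 8641 and 4323 CPM in vector libraries (log2 difference 0.10, edgeR adjusted p = 0.944). The small one, RNR1, had 572, 551 and 226 CPM in ERG libraries and 937, 561 and 281 CPM in vector libraries. There vector 2 lay above ERG 2, and the log2 difference was -0.4. Rows for copies of mitochondrial genes in the nuclear genome, such as MTCO1P12, 98.64% identical to COX1, held a further 3.09% to 3.24% of the mitochondrial counts in ERG libraries and 3.10% to 3.24% in vector libraries. This share hardly moved between libraries.

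Set against each other, the mitochondrial genes had a median log2 difference 0.35 above that of the nuclear genes. The summed mitochondrial level was 7.91, 8.46 and 4.05 times the summed nuclear level in ERG libraries and 5.25, 6.75 and 3.49 times in vector libraries. The groups overlapped, and the mean log2 ratio was 0.38 higher with ERG, with an SD of 0.59 over ERG libraries and 0.48 over vector libraries. Within the library sets the mitochondrial genes had opposite signs: ERG 1 and ERG 2 minus vector 1 gave a median of 0.37, with 12 of 13 genes positive, and ERG 3 minus vector 2 and vector 3 gave -0.27, with 13 of 13 negative. The nuclear medians had the same sign in both sets. Over all tested genes, 49.8% and 47.3% were negative in these comparisons, in this order. The spread between libraries was also wider for the mitochondrial genes, with a median ratio of highest to lowest library of 2.02, against 1.58 for the nuclear genes and 1.76 for all tested genes.

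**Figure D4:**
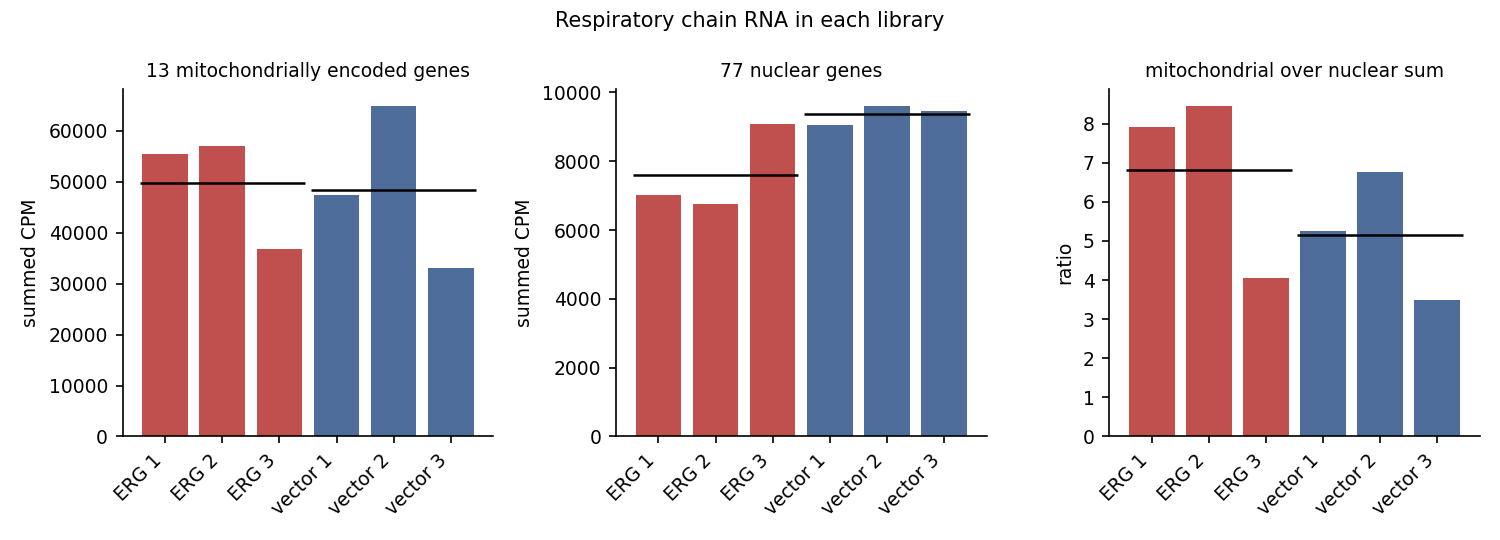
Summed level (CPM) of the 13 mitochondrially encoded genes, of the 77 nuclear genes, and the ratio of these sums, in each library (bars; ERG left in red, vector right in blue), with black lines at the group means. The nuclear sums are lowest in ERG 1 and ERG 2, while the mitochondrial sums are highest in vector 2 and lowest in vector 3.

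The 3 antisense or divergent transcripts were low and none passed the test. NDUFB2-AS1 had 1.64, 1.92 and 1.63 CPM in ERG libraries and 1.41, 1.22 and 0.978 CPM in vector libraries, and the groups did not overlap (log2 difference 0.52 ± 0.33 SE, edgeR adjusted p = 0.496). NDUFA6-DT and NDUFV2-AS1 had log2 differences of 0.09 and -0.31. The sources used here do not say whether counting used strand, so reads of these transcripts and of genes on the other strand cannot be told apart.

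Most lists of other nuclear genes of the organelle also had negative medians. Complex II, which feeds electrons from succinate, had 8 of 8 genes negative with a median of -0.25 (subunits and assembly factors). Its subunit SDHB had 52.7, 53.3 and 66.5 CPM in ERG libraries and 74.3, 82.7 and 75.5 CPM in vector libraries, without overlap. Among the electron carriers and subunits that the name rule misses, NDUFAB1, the acyl carrier protein of complex I, had a log2 difference of -0.48 and cytochromes CYC1 and CYCS of -0.36 each. Of the 6 tested genes of that list 4 were negative, with a median of -0.28, and DMAC2L and the nuclear copy MTATP6P1 were positive at 0.24 and 0.14. Of 78 mitochondrial ribosomal protein genes, 77 were negative, with a median of -0.30, and 14 lay lower with ERG without overlap (against 9.54% of all tested genes). Of 14 tricarboxylic acid cycle genes all were negative, with a median of -0.18. Import and inner membrane genes had 22 of 23 negative and a median of -0.27. In these 4 lists edgeR, DESeq2 and limma-voom each called 0 genes. An edgeR unadjusted p under 0.05 was found in 1 gene of complex II, 8 ribosomal protein genes, 0 cycle genes and 2 import genes. All of these were lower with ERG (against 6.66% of all tested genes). Assembly factors gave medians of -0.25 for complex I (17 of 18 negative), -0.06 for complex III (3 of 6), -0.24 for complex IV (19 of 24) and -0.26 for ATP synthase (5 of 5). Among them edgeR and limma-voom called 0 genes. An edgeR unadjusted p under 0.05 held for 5 in all, each lower with ERG (against 6.66% of all tested genes). DESeq2 called the complex I factors ECSIT and NDUFAF2 (against 2.89% of all tested genes called lower). Genes of mitophagy had a median of 0.11, with 3 of 9 negative and 0 called by edgeR, DESeq2 or limma-voom. Of them 1 was lower at an edgeR unadjusted p under 0.05 (against 6.66% of all tested genes).

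Among genes that act on mitochondrial DNA and RNA, 1 passed the test (against 0.732% of all tested genes called lower). REXO2, an exonuclease that degrades very short RNA in mitochondria, fell to 48.2, 49.3 and 54.0 CPM in ERG libraries, against 129, 114 and 102 CPM in vector libraries. The groups did not overlap, and the log2 difference was -1.19 ± 0.14 (SE; edgeR adjusted p = 0.0124). Without ERG 1, ERG 2 or vector 2, or with ERG 1 and ERG 2 summed, its adjusted p was 0.0616 to 0.0999 at log2 differences of -1.16 to -1.20. It was 1 of 23 genes of RNA processing and decay, of which 21 were negative, with a median of -0.31. TFAM, which packages mitochondrial DNA and starts its transcription, had 98.2, 93.0 and 148 CPM in ERG libraries and 84.3, 132 and 140 CPM in vector libraries, a log2 difference of -0.07 ± 0.25 (SE). Of the 16 genes of DNA maintenance and transcription, 13 were negative, with a median of -0.25. TOP1MT, the mitochondrial topoisomerase, had the most negative value there, -0.62 ± 0.13 (SE, edgeR adjusted p = 0.0686), and its groups did not overlap. It was called by DESeq2, as was POLG2, a subunit of the mitochondrial DNA polymerase (against 2.89% of all tested genes called lower).

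Of 11 regulators of mitochondrial biogenesis, 8 were negative and 3 positive, with a median of -0.34, and edgeR called 0. Without overlap of the groups, 4 were lower with ERG (against 9.54% of all tested genes) and 1 was higher (against 12.3%). At an unadjusted p under 0.05 there were 5, 4 lower and 1 higher (against 15.9% of all tested genes in either direction). Limma-voom called 0 as well, and DESeq2 called GABPB1, MYC, PPARA and PPARD (against 1006 of all 14203 tested genes). GABPB1, a subunit of the ETS-family GABP complex, had 104, 93.6 and 104 CPM in ERG libraries and 66.4, 71.0 and 68.8 CPM in vector libraries, without overlap (log2 difference 0.55 ± 0.12 SE, edgeR adjusted p = 0.0641). Its DNA-binding partner GABPA had 43.8, 39.0 and 33.3 CPM in ERG libraries and 32.0, 34.5 and 31.2 CPM in vector libraries. NRF1 had a log2 difference of -0.06 ± 0.20 (SE). MYC, which can drive many of these genes, had 682, 666 and 701 CPM in ERG libraries and 1036, 844 and 902 CPM in vector libraries, and PPARA, a nuclear receptor of fatty acid use, had 54.5, 57.8 and 43.7 CPM in ERG libraries and 91.9, 73.5 and 83.2 CPM in vector libraries. Neither overlapped between groups. PPARD and ESRRA were also lower with ERG without overlap, with log2 differences of -0.65 and -0.34.

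Markers of cell types differed between the same groups. All 14 erythroid markers were in the table, and 5 fell (edgeR, median -1.48, against 0.732% of all tested genes called lower; 10 with DESeq2), and their summed level was 3007 to 5047 CPM with ERG and 10079 to 16501 CPM with vector. Among 8 tested megakaryocyte markers, 6 rose (against 1.47% of all tested genes called higher; 2 with limma-voom), with sums of 1348 to 2524 CPM with ERG and 549 to 1181 CPM with vector, and of 8 mast cell and basophil markers 5 rose, with sums of 2933 to 3203 CPM with ERG and 1164 to 1376 CPM with vector. Without ERG 1, without ERG 2 or with ERG 1 and ERG 2 summed, edgeR called 0 genes in the whole table and so 0 of these markers. In each of these fits 10 erythroid, 6 megakaryocyte and 7 mast cell markers had an unadjusted p under 0.05 (against 1256 to 1278 of all 14203 tested genes). Without ERG 3 edgeR called 7 erythroid, 6 megakaryocyte and 3 mast cell markers (against 441 of all 14203 tested genes), and without vector 1 it called 7, 5 and 6 (against 441). Without vector 2 it called 0 erythroid, 0 megakaryocyte and 1 mast cell markers (against 19 of all tested genes), and without vector 3 it called 2, 0 and 2 (against 51). Of granulocyte and monocyte markers 3 of 9 were in the table, of lymphoid markers 2 of 7, and of stromal and epithelial markers 4 of 8. Of the 7 of these that were tested, edgeR and limma-voom called 0, and DESeq2 called ITGAM. An edgeR unadjusted p under 0.05 held for 5 (against 15.9% of all tested genes in either direction). The part of these markers in the differences of the respiratory chain genes was not tested.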

How the data were processed

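RNA of 6 libraries of F36P cells was measured, 3 with ERG and 3 with vector. Per the labels' protocols, poly(A) RNA was captured on oligo-dT beads and primed at random. Mitochondrial messages have short tails and ND6 mostly none, so their levels also depend on this capture, whose part was not tested. The submitters' processing notes name the build hg38 and edgeR 3.32.1. The aligner, counter, annotation and strand setting were not given in the sources used here. The deposited table holds whole-number read counts per gene, although its name speaks of CPM. The second-highest CPM of every gene is at least 1.01, so low genes had been removed before deposit. The control columns were assigned to vector, the only group besides ERG, and 0 columns were left unused.

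The 14203 genes that reached 1 CPM in 3 or more libraries were tested, leaving 618 untested, with edgeR 4.0.16 in R 4.3.3 (TMM, quasi-likelihood test, two-sided, Benjamini-Hochberg adjustment, threshold 0.05). All 6 libraries shared an estimate of the spread. DESeq2 1.42.0, limma-voom (limma 3.58.1), other scalings and filters, each library left out, ERG 1 and ERG 2 summed, a replicate block and a term for the library sets were alternatives, and the scripts were tested on simulated data. Tested nuclear members other than NDUFA4L2 had 171 to 15962 counts per library and mitochondrial ones 814 to 208345. Counting error is small against the spread between libraries for the mitochondrial genes, but not for every nuclear gene. NDUFV3, for example, had 513, 599 and 465 counts in vector libraries, with an SD of only 0.24 CPM over them.

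The members and gene lists were chosen with earlier results of these data known. Named were all mitochondrial genes, in each complex the 3 nuclear genes with the highest mean CPM and the 3 with the largest log2 difference, paralogues and tissue isoforms, and members past the threshold. Further genes were named after their values were seen, for a low unadjusted p, groups that did not overlap, a value close to 0 or their role. Coordinates, mitochondrial positions and promoters are from RefSeq on GRCh38.p14, and transcript lengths and the sequences of overlaps and copies from GENCODE release 29. A level per kilobase divides the CPM by the length of the longest principal transcript, which is a coarse guide for nuclear genes. Same-numbered ERG and vector libraries did not deviate together in every pair (correlations of deviations from the group means 0.628, -0.285 and 0.589), so the numbers were not taken to pair them.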

Additional observations from a re-analysis of the deposited data

How the results depend on the processing

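Over 16 alternatives, the nuclear genes kept a negative median log2 difference (-0.46 to -0.23), with 71 to 75 of them negative in each, and the mitochondrial median lay between -0.19 and 0.36. The difference of the medians, mitochondrial minus nuclear, was 0.12 to 0.65. Leaving out a library turned the sign of the mitochondrial median: it was -0.19 without vector 3 and 0.36 without vector 2. In at least 1 alternative, 12 of 13 mitochondrial genes changed sign (57 of 208 values), and so did 5 of 76 nuclear genes (8 of 1215 values), COX7A2L, NDUFB11, NDUFC2, NDUFS1 and NDUFS4. Counts of nuclear genes called lower were 1 with DESeq2, 7 with the library set term and 0 to 3 with a library left out (3 without ERG 3), and 0 in all other alternatives. The library set term was drawn from the same data, so its p-values can be too small. No mitochondrial gene was called in any of the alternatives (0 of 13 at an unadjusted p under 0.05 in the edgeR fit of all 6 libraries).

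Over all tested genes, 313 were called with edgeR, 1006 with DESeq2, 1869 with the set term, 0 with ERG 1 and ERG 2 summed (1277 at an unadjusted p under 0.05) and 0 to 441 with a library left out. Among those fits, the ones without ERG 1 and without ERG 2 gave 0 (1278 and 1256 at an unadjusted p under 0.05), the one without vector 2 gave 19 and the one without vector 3 gave 51. The replicate block gave 905 calls over all genes and 0 among nuclear or mitochondrial members, and the samples are not paired by these numbers. The summed levels kept a ratio of ERG to vector of 0.735 to 0.859 for nuclear genes and 0.886 to 1.24 for mitochondrial genes. The cause of these shifts was not tested, and 3 libraries per group limit what can be called.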
